A study of Mus musculus with 2 samples.

Results

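POU5F1 peaks holding the exact octamer were studied in mouse embryonic stem cells. These are peaks with the 8-base word ATGCAAAT (ATTTGCAT on the other strand) within 100 bp of the peak centre. Of the 5515 peaks in the authors' whole-series list on mm9, 738 met this rule (13.4%, 95% Clopper-Pearson interval 12.5 to 14.3), and together they held 848 octamers. The rule used the genome sequence under the peaks and not their signal.

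POU5F1, also called OCT4, was immunoprecipitated from E14TG2a.4, a male embryonic stem cell line of strain 129/Ola whose embryonic age is given as 3.5 days, and the bound DNA was sequenced (ChIP-seq). There was 1 group, with biological replicates 1 and 2, no treatment and no other genotype; both replicates came from this 1 line. The deposited mm9 lists held 1330 peaks for replicate 1 and 6324 for replicate 2. Each peak carries 1 signal value per list, on a scale that is not stated, so signals were compared within a list only and read depth is unknown.

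POU5F1 belongs to the POU family, whose DNA-binding part consists of a POU-specific domain and a POU homeodomain joined by a flexible linker. On the octamer the POU-specific domain reads the ATGC end and the homeodomain the AAAT end. In embryonic stem cells POU5F1 often binds next to SOX2, an HMG-box factor, on a composite element in which a SOX half-site stands just before the octamer, and POU proteins can also bind as dimers to palindromic elements called MORE and PORE.

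The sites under the peaks that carry the findings are printed here 5′ to 3′ on the strand of the octamer, from the mm9 reference. Capitals mark the octamer and, before it, the 6 bases at the place of the SOX half-site CATTGT, with 1 base between them. The first 3 have that half-site without a mismatch, and the others were chosen by signal or by the gene nearby.
Ebf1, chr11:44655391-44655398, + strand: caccgCATTGTtATGCAAATtgttcctatt
Wbscr17, chr5:131653238-131653245, + strand: accttCATTGTtATGCAAATtgcattccta
Spock1, chr13:57464133-57464140, - strand: ggaagCATTGTaATGCAAATgcctcgtcct
Prr5, chr15:84452654-84452661, - strand, 1 mismatch: cctccGATTGTcATGCAAATcttaggctac
Rest, chr5:77691363-77691370, - strand, 1 mismatch: cttcgTATTGTgATGCAAATaggccaatgg
Diap3, chr14:86795999-86796006, - strand, 2 mismatches: aaagtCTTTGCtATGCAAATcaaaccacag
Jarid2, chr13:44801037-44801044, - strand, 3 mismatches: tttttCCTTCAaATGCAAATaaaggcactt
Esrrb, chr12:87811996-87812003, - strand, 3 mismatches: gacccTAGTGAtATGCAAATgtatggaaaa
Tcfcp2l1, chr1:120522133-120522140, + strand, 5 mismatches: atattCCCGTCtATGCAAATcacatacatt

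Peaks with several octamers are shown as the whole stretch from 10 bases before the first octamer to 10 bases after the last, on the + strand, with only the octamers in capitals in either orientation. The stretch near Stac3 holds 4 octamers without a gap between 3 of them, and the stretch near Dppa3 and that at the promoter of 1700012B15Rik hold 2 and 3.
Stac3, chr10:126946482-126946539: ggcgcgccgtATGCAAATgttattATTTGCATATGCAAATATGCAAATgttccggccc
Dppa3, chr6:122574645-122574716: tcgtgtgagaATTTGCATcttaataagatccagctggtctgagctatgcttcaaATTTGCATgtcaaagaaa
1700012B15Rik, chr12:3236194-3236272: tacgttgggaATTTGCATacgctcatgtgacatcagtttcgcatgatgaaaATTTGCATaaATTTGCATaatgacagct

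The octamers lay at the middle of the peaks. The median distance from the peak centre was 27 bp, and 47.9% of the 848 octamers lay within 25 bp and 77.6% within 50 bp. The rule limits these distances to 100 bp, so they are partly set by it. Density over all 5515 peaks is not limited in this way. It reached 29.7 octamers per 1000 peaks in the 20 bp just before the centre. In the outermost 20 bp of the window it was 5.80 and 5.26 on the 2 sides, and in the next 20 bp 3.63 and 3.26. In windows of the same size shifted by 2 kb, 77 of 5515 held an octamer on either side (1.40%), which is the background for the 13.4% at the peaks. Strand made little difference, with 426 octamers on the + strand and 422 on the - strand.

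**Figure D1:**
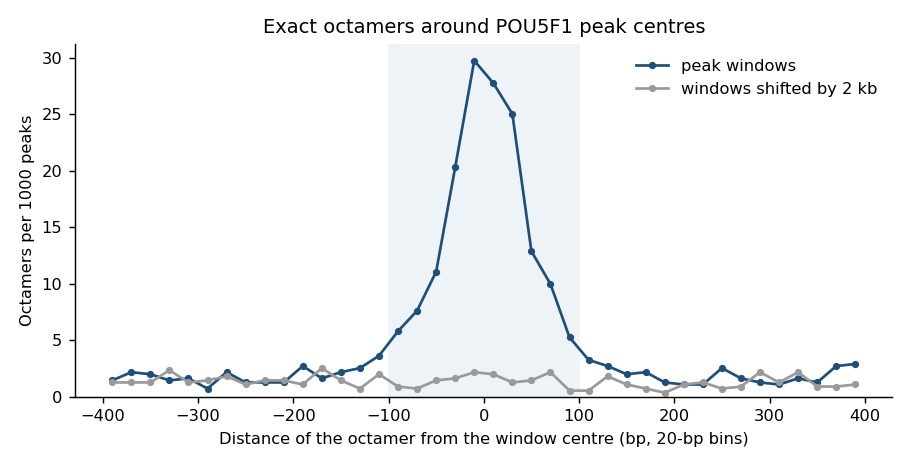
Exact octamers per 1000 peaks (y axis) by distance from the peak centre in 20-bp bins (x axis, bp), in the peak windows (blue) and in windows shifted by 2 kb (grey, towards higher coordinates). The shaded stretch is the window of the membership rule; the blue line reaches 29.7 beside the centre, while the grey line stays low throughout.

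At the edge of the rule the members thinned out. In 19 members the nearest octamer lay in the outermost 10 bp of the window, with a median signal of 5.87. Another 14 peaks had their nearest octamer in the next 10 bp and were not members, with a median signal of 5.73. A further view of the same limit is that 90 of the 4777 peaks without an octamer in the window held one elsewhere in the peak.

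The strongest octamer peaks, chosen by whole-series signal, had high signal in both replicates. The highest, at chr14:86795695-86796358, had a signal of 28.49 in the whole-series list, 25.51 in the replicate 1 list and 53.66 in the replicate 2 list, and ranked 3 of all peaks. Its nearest protein-coding gene, Diap3, which encodes a formin that assembles actin filaments, starts 697 kb away. The next, 19.9 kb from the start of Grp, the gastrin-releasing peptide gene, had 27.6, with 24.47 and 51.39 in the replicate lists. The peak 47.4 kb upstream of Prr5, which encodes a subunit of the mTORC2 kinase complex, had 26.72, with 20.53 and 51.39. A peak in an intron of Gprc5b, an orphan G protein-coupled receptor gene, had 26.14, with 19.91 and 51.39.

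The next 11 by signal were spread over genes of many kinds. Signals were 25.55 in an intron of Il11ra1 (nearest start 2810432D09Rik), 24.96 near Stac3, a gene of muscle excitation and contraction, and 19.09 near Slain2, a gene of microtubule growth. The peak 4.23 kb upstream of Ric8b, a chaperone gene of G protein subunits, had 17.33 and ranked 44. The peak 102 kb upstream of Arg1, the arginase gene, had 16.45 with 2 octamers, and the peak 23.8 kb upstream of Jarid2, a cofactor of Polycomb repressive complex 2, had 16.44. Those 77.7 kb from the start of Cdk15 and 18.4 kb from that of Klf13 had 15.86 each. That in an intron of Ncam2, a neural adhesion gene, had 14.98. Those in an intron of Ebf1, a B cell transcription factor gene, and at the promoter of Dido1 had 14.39 each, as did a peak near Gsx2 that ties with them. Each of these 15 peaks, and the Gsx2 peak (12.44 and 22.67), was present in both replicate lists. The whole-series list that chose them covers the same 2 replicates, so this is no independent support. Peaks of like signal without an octamer were not compared.

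Over all members, presence in the replicate lists was close to that of the other peaks. Of all 5515 peaks 22.7% overlapped a replicate 1 peak by at least 1 bp and 86.7% a replicate 2 peak. Of the octamer peaks 172 overlapped a replicate 1 peak (23.3%, interval 20.3 to 26.5, against 22.6% without an octamer). For the replicate 2 list the count was 661 (89.6%, interval 87.1 to 91.7, against 86.3%). Another 75 octamer peaks (10.2%) overlapped a peak of neither list, against 12.8% of the peaks without an octamer. The low share for replicate 1 goes with its short list. In the 170 octamer peaks present in both lists, the signal ran from 4.53 to 25.51 with a median of 7.47 in replicate 1, and from 6.8 to 53.66 with a median of 13.73 in replicate 2. These intervals cover counting error only, not the spread between cultures.

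**Figure D2:**
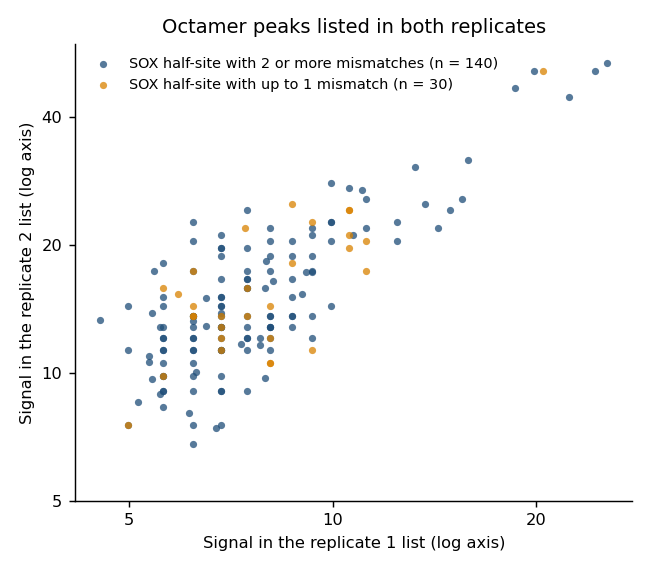
Deposited signal of the 170 octamer peaks present in both replicate lists, replicate 1 (x axis, log scale) against replicate 2 (y axis, log scale), 1 point per peak; orange points have the SOX half-site with up to 1 mismatch at the composite spacing (30 peaks) and blue points do not (140 peaks). The scales of the lists are not comparable, and peaks high in 1 list tend to be high in the other.

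The SOX half-site stood at the composite spacing far more often than at other spacings. With up to 1 mismatch, CATTGT preceded 82 of the 848 octamers on the same strand with 1 base between (9.67%, interval 7.76 to 11.9), each in a different peak. The word was exact before 14 octamers (1.65%). Among 233120 octamers of the genome outside peaks the same shares were 0.447% and 0.0210%, and among the 175668 of these whose 38-base context occurs once they were 0.584% and 0.0279%. All other spacings up to 40 bp on either side and strand held the half-site before or after at most 10 of the 778 octamers that lie outside repeated contexts, with a median of 4 over all spacings. At 1 base before the octamer the count among these 778 was 82 (10.5%).

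**Figure D3:**
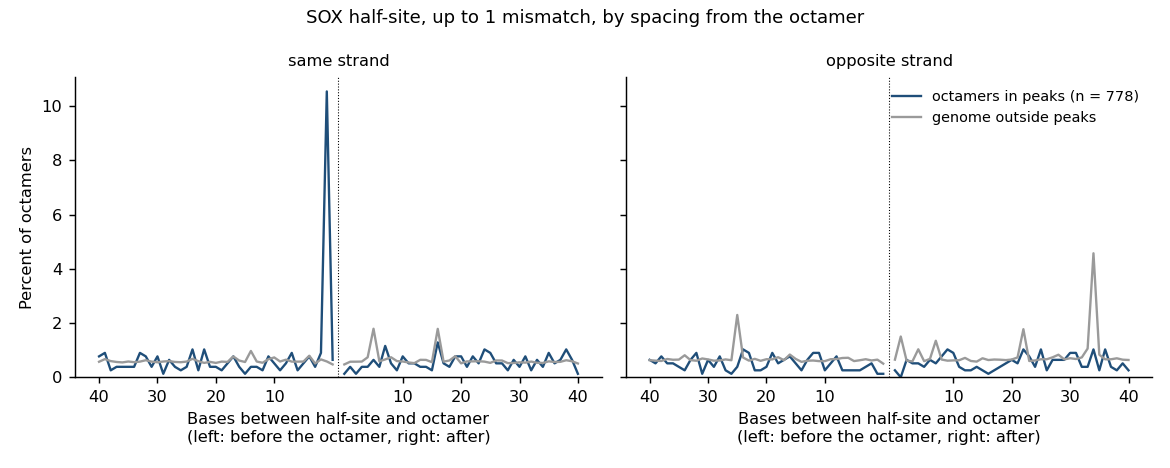
Percent of octamers (y axis) with CATTGT, up to 1 mismatch, at each spacing in bases before (left) or after (right) the octamer (x axis), on the same strand (left panel) and the opposite strand (right panel), for 778 octamers in peaks outside repeated contexts (blue) and octamers with single-copy context outside peaks (grey). The blue line reaches 10.5% at 1 base before on the same strand.

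At 5 of the 6 places of CATTGT the letter of that word was more frequent before the octamers in peaks. Counting back from the octamer, T at position 5 was present in 57.3% of the 778 octamers against 30.5% of single-copy octamers outside peaks, and T at position 4 in 48.2% against 26.6%. These are the third and the fourth letters of CATTGT. C at position 7, its first letter, had 35.0% against 22.6%, G at position 3 had 34.7% against 24.0%, and T at position 2 had 36.4% against 20.9%. A at position 6, the remaining letter, did not follow, with 42.2% against 41.9%, while T there had 32.6% against 26.4%. The base between the words was T in 49.7% against 26.3%. After the octamer, G directly behind it had 44.7% against 26.6%. C and G also rose at places outside the word, by as much as the C and the G within it. C at position 8 had 30.6% against 17.3%, and G at the third base after the octamer had 29.8% against 17.2%. The C and the G of the word therefore do not stand apart from other places. The T letters at positions 5 and 4 were both present before 291 of the 778 octamers (37.4%) and before 9.77% of the single-copy octamers outside peaks.

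Among octamer peaks, median signal in the whole-series list was highest with the exact SOX half-site, equal at 1 and 2 mismatches, and lowest at 3 or more. The median signal was 8.37 in the 14 peaks with the exact word (range 3.82 to 14.39), 6.17 in the 68 with 1 mismatch, 6.17 in the 136 with 2 and 5.345 in the 520 with 3 or more. Peaks without an octamer had a median of 5.57. The replicate lists kept 3 or more mismatches lowest but did not follow the order of the rest. For 0, 1, 2 and 3 or more mismatches, medians in replicate 1 were 7.465, 7.78, 7.705 and 6.84. In replicate 2 they were 13.6, 9.83, 11.34 and 9.295. Mean log2 signal was 2.76 ± 0.54 (SD) in the 82 peaks with up to 1 mismatch and 2.58 ± 0.49 in the other 656, a difference of 0.18 with an SE of 0.06 taken over peaks. Octamer peaks with 2 or more mismatches differed from peaks without an octamer by 0.03 with an SE of 0.02. Peaks with up to 1 mismatch were in the replicate 1 list in 30 of 82 cases (36.6%, interval 26.2 to 48.0). Those with 2 or more were there in 142 of 656 (21.6%, interval 18.6 to 25). Within these 656 the counts were 46 of 136 at 2 mismatches and 96 of 520 at 3 or more. The peaks share libraries and are not replicates, so no test was made.

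**Figure D4:**
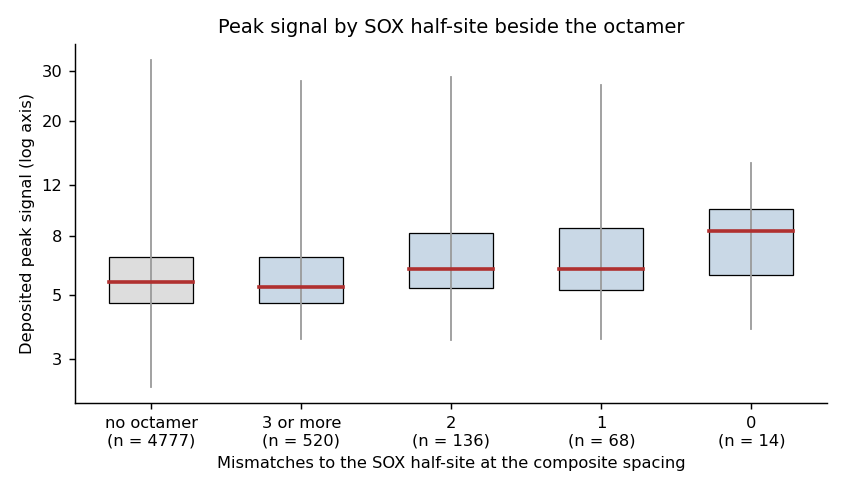
Deposited signal in the whole-series list (y axis, log scale) for peaks without an octamer and for octamer peaks by the number of mismatches to CATTGT at the composite spacing (x axis). Red lines are medians, boxes the quartiles and grey lines the full range over peaks; the median is 5.57 without an octamer and 8.37 at 0 mismatches (14 peaks).

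The 14 peaks with the exact composite lay mostly far from protein-coding starts, at a median distance of 118455 bp. The highest was the Ebf1 intron peak printed above, with 14.39 (10.58 in replicate 1, 24.19 in replicate 2). The peak in an intron of Wbscr17 had 12.33 (10.58 and 24.19) and that 333 kb from Spock1, a secreted proteoglycan gene, had 12.04 (11.2 and 20.41). The site 26.6 kb downstream of Sox9, a SOX family regulator of cartilage and gonad, had 9.69 and 18.89 in replicate 2, with no overlapping peak in the replicate 1 list. In all, 8 of the 14 overlapped a replicate 1 peak and 13 a replicate 2 peak.

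Of the 10 peaks of highest signal with the half-site at this spacing, 7 had 1 mismatch, and the Prr5 peak was the highest of these. The peak at the promoter of Pipox, a peroxisomal oxidase gene, had 13.51 (8.71 and 24.94), and that 3.14 kb upstream of Rest, the repressor of neuronal genes, had 13.22 (9.33 and 22.67). A second Ebf1 intron peak had 12.33 (7.42 and 21.92). The peak 3.41 kb upstream of Tcf7, a transcription factor gene of the Wnt pathway, had 10.87 (11.2 and 17.38).

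Anywhere in the window, whatever the spacing, the exact SOX half-site was less frequent in octamer peaks than in the others. CATTGT stood anywhere in the window, on either strand, in 102 of 738 octamer peaks (13.8%, interval 11.4 to 16.5), of which 14 had it at the composite spacing. Of the 4777 peaks without an octamer 950 held it (19.9%, interval 18.8 to 21). In windows shifted by 2 kb the shares were 8.13% and 10.7% for the octamer peaks on the 2 sides and 10.8% and 10.9% for the other peaks. Whether peaks without an octamer hold the half-site beside a mismatched octamer was not tested.

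Several octamers in 1 window were more frequent than in shifted windows. There were 656 peaks with 1 octamer, 62 with 2, 13 with 3, 6 with 4 and 1 with 5, so 82 peaks (11.1%) held at least 2. Of the 77 shifted windows with an octamer on each side, 1 and 3 held at least 2. Of these 82 peaks, 6 also had the SOX half-site with up to 1 mismatch, which 82 of all 738 octamer peaks had (11.1%). Mean log2 signal with 2 or more octamers was 2.67 ± 0.54 (SD, 82 peaks) against 2.59 ± 0.49 with 1, a difference of 0.08 with an SE of 0.06.

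Neighbouring octamers were mostly on the same strand, in 82 of 110 adjacent pairs, with 10 pairs facing each other and 18 facing apart. The commonest spacings from start to start were 10 bp (9 pairs) and 32 bp (9 pairs), both on the same strand. The 32 bp spacing came mostly from the repeated contexts described further on: counting a second octamer with up to 1 mismatch, it was present after 15 of all 848 octamers and after 3 of the 778 outside these contexts. Around those 778, on the same strand and 2 bases after the octamer, it was present in 21 (2.70%) against 0.234% of single-copy octamers outside peaks. At 13 bases after, which is 21 bp from start to start, it was present in 14 (1.80% against 0.152%). On the opposite strand, directly before the octamer so that the 2 point apart, it was present in 19 (2.44% against 0.178%). An exact pair pointing apart is counted from each of its members, while a same-strand pair counts once after the octamer.

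The POU half-site ATGC, the part read by the POU-specific domain, was also more frequent at certain places. On the opposite strand directly before the octamer it was found in 33 of 778 (4.24% against 0.508% outside peaks). At this place it is also the end of an octamer pointing apart. The 33 can therefore include the octamer-like words counted there above and are not a separate finding. On that strand 4 bases before the octamer it was found in 22 (2.83% against 0.418%). The median over all spacings was 4 octamers.

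**Figure D5:**
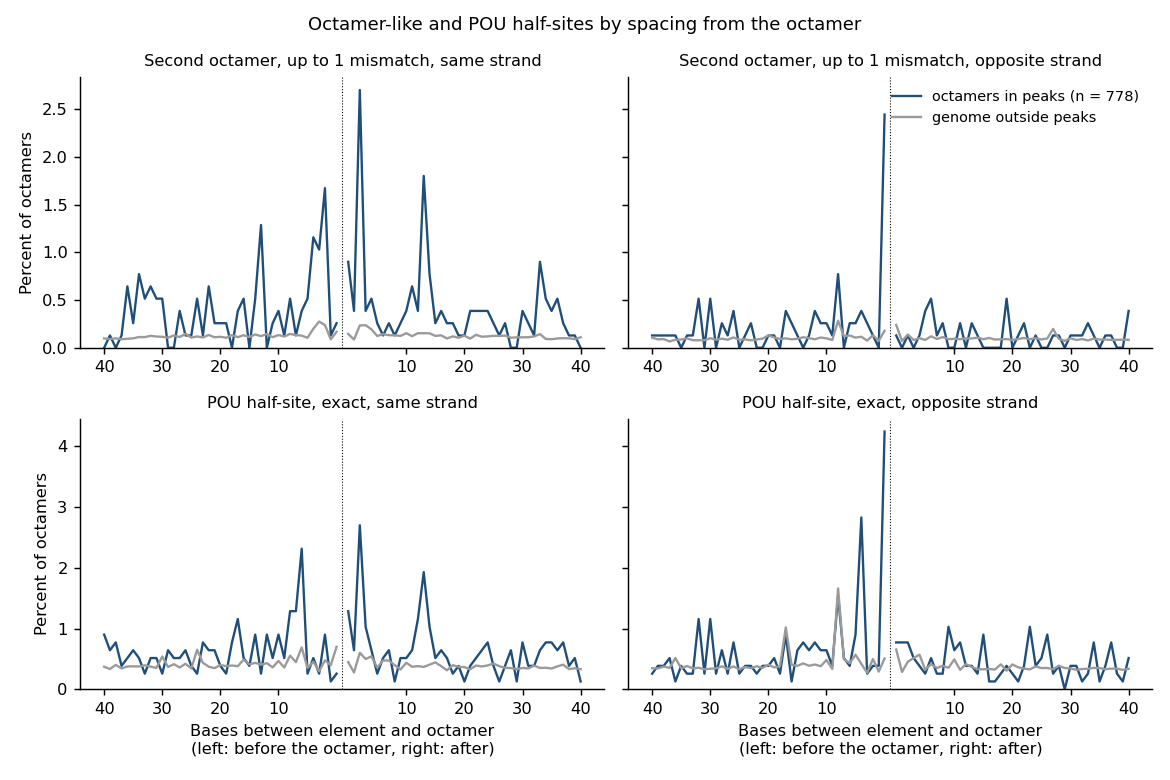
Percent of 778 octamers in peaks (blue) and of single-copy octamers outside peaks (grey) with a second octamer of up to 1 mismatch (top) or the exact POU half-site (bottom) at each spacing in bases before or after the octamer (x axis), on the same strand (left) and the opposite strand (right). Blue maxima stand at 2 bases after on the same strand (2.70%) and directly before on the opposite strand (2.44% and 4.24%). At this last place the top and bottom panels can count the same sites.

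Peaks with these arrangements had ordinary signal for the most part. The 32 peaks with an octamer-like word at 10 bp on the same strand had a median signal of 5.29, against 5.58 in the other octamer peaks. The 14 with an octamer-like word directly before on the opposite strand had a median of 6, and the highest of these was the Stac3 peak at 24.96 (22.4 in replicate 1, 44.59 in replicate 2). Its printed stretch shows an octamer pair pointing apart with a further octamer directly behind.

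The highest peaks with 3 or more octamers were few and had no common gene type. After Stac3 came an intron peak of Il3ra, a cytokine receptor gene, with 4 octamers and a signal of 13.22 (9.95 and 20.41). Peaks in the intron and at the promoter of 1700012B15Rik held 5 and 3 octamers with 12.92 (11.2 and 21.92) and 12.04 (9.33 and 21.92). The other 6 of the 10 highest had signals from 5.58 to 10.57, and 2 of them lay beside each other, with 3 and 4 octamers, upstream of Slc7a15. Of the 20 peaks with 3 or more, 5 belonged to the repeated contexts described further on.

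Few octamer peaks held one of the dimer elements. The exact MORE, which is ATGCAT written 2 times in a row, was present in 17 windows of all peaks, 2 of them octamer peaks, with signals of 17.33 (Ric8b) and 7.64. With up to 1 mismatch it was present in 21 octamer peaks (2.85%, interval 1.77 to 4.32) and 110 others (2.30%, interval 1.90 to 2.77), against 5 and 11 of 5515 shifted windows. An octamer followed directly by GCAT is a MORE with 1 mismatch, a form that the other peaks cannot hold in the window. The 2 shares are therefore not independent of the rule, and peaks of this form were not counted apart. The 21 had a median signal of 7.64 and included the Grp peak and the Prr5 peak. The PORE, an octamer preceded directly by ATTTGAA, was present at 0 of the 848 octamers, which allows a share of up to 0.354% (3 counts of the total, a limit for counting error only). Outside peaks 0.647% of all octamers and 0.464% of the single-copy ones had it.

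A group of 56 octamer peaks (7.59%) shared their wider sequence. These were found after the data had been seen, as octamers whose 68-base contexts differed by at most 14 bases from another in at least 3 peaks, and they formed 7 groups. No repeat annotation was used. None of the 56 lay within 1 kb of a transcription start site (TSS), 83.9% were intergenic, and 8 (14.3%) overlapped a replicate 1 peak against 24.0% of the other 682 octamer peaks. How reads that fit several copies were placed is not stated in the labels or files.

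The largest group had 36 peaks on 17 chromosomes, all with 1 octamer. A further 210 copies of its context with an exact octamer lay outside all peaks, so 14.6% of the copies so counted were in octamer peaks. Copies without an exact octamer were not counted. Their signal ran from 3.82 to 9.98, with 33 of 36 in the replicate 2 list and 5 in the replicate 1 list. A group of 3 peaks on chromosome 14, all with the identical context and no further such copy outside peaks, had signals of 10.87, 12.63 and 12.63. All 3 were in both replicate lists. The commonest contexts of these groups are printed with the octamer in capitals, and were chosen after their values were seen.
Group of 36 peaks, 16 identical, the copy near Atp11b at chr3:35316398-35316405: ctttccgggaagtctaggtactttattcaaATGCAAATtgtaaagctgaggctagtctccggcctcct
Group of 3 peaks, the copy at chr14:53889319-53889326: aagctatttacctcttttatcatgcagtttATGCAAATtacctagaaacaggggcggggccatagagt

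Chromosome X held the largest share of octamer peaks, 19 of 84 (22.6%), and 12 of these 19 were in repeated contexts. Of them, 9 lay between chrX:120384935 and 122477398 with 25 octamers in all, among 10 peaks in that stretch. They had signals from 4.11 to 6.17, all 9 were in the replicate 2 list and 0 in the replicate 1 list. Without the repeated contexts 7 of 72 peaks on chromosome X held an octamer (9.72%). The lowest share was on chromosome 15, with 19 of 224 (8.48%).

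The location of octamer peaks was close to that of the others. Of all peaks 10.5% lay within 1 kb of a TSS. Of the octamer peaks 77 did (10.4%, interval 8.32 to 12.9) against 10.6% of the peaks without an octamer. Introns held 35.5% against 34.6%, exons 2.03% against 2.16% and intergenic sequence 52.0% against 52.6%. More than 100 kb from any protein-coding TSS lay 23.0% (interval 20.0 to 26.2) against 19.9% (interval 18.7 to 21). The median distance to such a TSS was 26115 bp against 22567 bp. GC content was alike, with medians of 45.5% and 46%, as was peak width, with 374 and 366 bp.

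Promoters of small nuclear RNA (snRNA) genes had no octamer peak. These genes are known for an octamer in the distal element of their promoters. Peaks lay within 1 kb of the TSS of an annotated snRNA gene in 44 cases, with a median signal of 6.46, and 0 of the 44 had an octamer in the window (interval 0 to 8.04%). In 1 of them an octamer lay elsewhere in the peak. An octamer with up to 1 mismatch was in the window in 3 (6.82%), against 53.7% of all peaks, a share that includes the exact octamers. Among the 738 octamer peaks, 0 at such promoters allow a share of up to 0.407% (3 counts of the total), and the 44 are 0.921% of the peaks without an octamer. The distance from the distal element to the peak centre was not tested.

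Histone promoters, where H2B genes are known to carry an octamer, held few peaks. Of the 581 peaks within 1 kb of any TSS, 4 lay there at the 63 histone genes listed, and 1 of these 4 was an octamer peak. Another 2 of the 4 held an exact octamer elsewhere in the peak, outside the window. At H2B genes lay 3 of the 4, of which 1 was the octamer peak and 1 held an octamer elsewhere in the peak. The octamer peak lay 18 bp from the start of Hist2h2bb at chr3:96073503-96073820, with a signal of 5.87, 8.31 in replicate 2 and no overlapping peak in the replicate 1 list. Its octamer (tatagAGCTTGtATGCAAATgaggtttcac, capitals as above) was 83 bp from the centre.

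Signal over all octamer peaks was little above that of the other peaks. Mean log2 signal was 2.60 ± 0.49 (SD, 738 peaks) against 2.55 ± 0.47 (4777 peaks), a difference of 0.05 with an SE of 0.02, and medians were 5.58 and 5.57. In the replicate 1 list the difference was 0.04 with an SE of 0.04 over 172 and 1081 peaks, and in the replicate 2 list 0.05 with an SE of 0.02 over 661 and 4123. The fifth of peaks with the highest signal held an octamer in 16%, and the others by falling signal in 12.7%, 14.6%, 11.3% and 12.2%. By location the difference was 0.08 with an SE of 0.03 between genes and -0.09 with an SE of 0.05 at promoters.

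Of 22238 protein-coding genes, 931 (4.19%) had an octamer peak within 50 kb of a TSS, and 6064 (27.3%) had any peak there. The gene lists below are described by their counts beside these shares. Since 50-kb reaches overlap in gene clusters, 1 peak can count for several genes.

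Of 30 pluripotency regulators, 24 were near any peak and 5 near an octamer peak. Dppa3, an early embryo and germ line gene, had the highest, 1.80 kb upstream, with a signal of 12.04 (9.33 and 17.38) and 2 octamers, and that peak is also 14.5 kb from Gdf3, a TGF-beta family ligand gene. The peak 7.74 kb upstream of Klf2, with Gm10282 as its nearest gene, had 8.81, with 12.85 in replicate 2 alone. The peak 2.36 kb upstream of Tcfcp2l1 had 7.34 (6.84 and 12.09). Klf2 and Tcfcp2l1 encode transcription factors of the naive pluripotent state. The peak 31.8 kb upstream of Klf5, a related Krüppel-like factor gene, had 6.17, with 9.83 in replicate 2 alone. Esrrb, an orphan nuclear receptor gene, had 2 octamer peaks, 1 at a promoter with 5.64 (9.83 in replicate 2) and 1 in an intron with 4.41 (6.8 in replicate 2), and neither overlapped a replicate 1 peak. In these 6 peaks the SOX half-site had between 2 and 5 mismatches.

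Of the 28 genes of FGF and LIF signalling, 16 were near any peak and 5 near an octamer peak. Il6st and Lifr, which encode the 2 chains of the LIF receptor, both had one. The peak 12.4 kb upstream of Il6st had 13.22 (14.31 in replicate 1, 21.92 in replicate 2), and that 13.7 kb upstream of Lifr had 7.81, with 13.62 in replicate 2 and 2 octamers. Spred2, an inhibitor of the MAPK pathway, had a peak of 5.29, with 9.07 in replicate 2.

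Of the 30 genes of TGF-beta and Wnt signalling, 16 were near any peak and 4 near an octamer peak. The highest were the Tcf7 peak described above, the peak 33.4 kb downstream of Inhbb, an activin subunit gene, with 10.28 and 18.89 in replicate 2 alone, and a peak in an intron of Lgr5, a receptor gene of the Wnt pathway, with 8.22 and 14.36 in replicate 2 alone.

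Of 30 chromatin regulators, 20 were near any peak and 6 near an octamer peak. After Jarid2 (11.05 in replicate 1, 26.91 in replicate 2) came the peak 41.5 kb from Dnmt3l, a cofactor of DNA methyltransferases, with 7.97 (6.22 and 13.28). Its nearest gene was Icosl, 27.5 kb away. The promoter peak of Phc1, a Polycomb subunit gene, had 7.64 (6.84 and 9.83). A list of 30 genes typical of embryonic stem cells had 24 near any peak and 6 near an octamer peak, led by Jarid2, by Fgf17, a growth factor gene 19.0 kb away with 12.63 (6.22 and 22.67), and by Gdf3.

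Lineage genes had octamer peaks too. Of 25 genes of trophectoderm, mesoderm and endoderm, 13 were near any peak and 4 near an octamer peak. The peak near Hhex, an endoderm homeobox gene, had 11.75 (8.71 and 20.41), that in an intron of Gcm1, a trophoblast regulator, had 7.05 (6.22 and 11.34), and that at the promoter of Cdx2, a trophectoderm regulator, had 4.7, with 5.6 in replicate 1 and no overlapping peak in the replicate 2 list. Of 30 genes of neuroectoderm and the Hox clusters, 19 were near any peak and 3 near an octamer peak. The peak 49.1 kb from Hoxc10, with Hoxc5 as its nearest gene, had 7.05. That 28.6 kb from Olig2, with Olig1 as its nearest gene, had 5.29. The peak at the promoter of Otx2, a head homeobox gene, had 4.11. The Otx2 peak overlapped no peak of either replicate list, and the other 2 were in the replicate 2 list alone (13.6 and 8.31). The Olig2 peak belongs to the group of 36.

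Of 19 SOX family genes, 10 were near any peak and 3 near an octamer peak, Sox9 with 2 such peaks, Sox30 and Sox7, with signals of 9.69, 4.7, 5.58 and 4.41. The Sox30 peak lay 40.1 kb away, with Gm12166 as its nearest gene. Of 14 POU family genes, 5 were near any peak and 0 near an octamer peak. Of 30 somatic genes, 8 were near any peak and 0 near an octamer peak. Of the 63 histone genes, 53 were near any peak and 12 near an octamer peak, but these 12 shared 2 peaks. The other of these, 38.9 kb from Hist1h4h, was also the one for Hist1h2af and Hist1h3g, and had a signal of 7.05 with 11.34 in replicate 2 alone.

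The 738 peaks had 684 different nearest protein-coding genes. The genes nearest to the most octamer peaks, named after their values were seen, were Zfp536, a zinc finger gene, with 4, and Enc1, Mef2c, Sox9 and Vrk1 with 3 each. Nearest does not mean close here. The 4 Zfp536 peaks had signals from 4.41 to 6.46 and lay 17 to 375659 bp from its TSSs. The peaks nearest to Mef2c had 4.11, 7.64 and 4.41, at 205281, 210071 and 214060 bp, and the 7.64 peak alone was in the replicate 1 list (5.6). Those of 4.11 and 4.41 lay within 1 kb of a TSS of a gene that is not protein-coding. Distances ran from 2048 to 469635 bp for Vrk1, 41846 to 253760 bp for Enc1 and 16849 to 175026 bp for Sox9.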

How the data were processed

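The authors deposited mm9 peak lists for replicate 1, replicate 2 and the whole series in broadPeak form, as the text files deposited with them state. By that format's columns, the signal per peak, the −log10 p-value (none below 5.008 in the whole-series list) and the q-value are those deposited by the authors. The aligner, peak caller, thresholds and the way replicates were combined are not given in the sources used here. The mm10 lists and the control experiment were not used here. No read counts were used, so depth is unknown.

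The genome was NCBIM37 (mm9) with GENCODE M1. Windows reaching 100 bp to either side of each centre were searched on both strands (Python 3.11.15, pandas 2.3.3, numpy 2.4.6). Peaks were shared between lists at an overlap of at least 1 bp. Locations were ranked promoter (within 1 kb of any TSS), exon, intron, intergenic. Genes were near a peak within 50 kb of a TSS. Of 353 gene list symbols 23 had no match, among them nearly all of the small nuclear RNA list, so annotated gene types were used for these genes. Shares have 95% Clopper-Pearson intervals (scipy 1.17.1). Differences in mean log2 signal have an SE over peaks and no test. The motif search was tested on simulated sequences.

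The members and lists were chosen with earlier results of these data known. Named genes were those nearest the 15 octamer peaks of highest signal, all pluripotency regulators near one, the up to 10 highest peaks with 3 or more octamers and with the SOX half-site, histone promoters, and up to 3 genes per other list. Alternatives were the window, the replicate lists, mismatches, a −log10 p of at least 10, TSS distance, overlap, and leaving out repeated contexts.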

Additional observations from a re-analysis of the deposited data

How the results depend on the processing

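The share of peaks with an octamer was 10.4% within 50 bp of the centre, 15.4% within 250 bp and 53.7% with up to 1 mismatch. It was 12.5% without the repeated contexts, an alternative added after seeing the data. In the replicate lists taken alone it was 12.7% to 13.6%. Peaks with 2 or more octamers were 7.68% within 50 bp and 11.2% to 14.4% in the replicate lists, the upper value from the shorter replicate 1 list. The SOX half-site preceded 1.65% of octamers when exact and 25.8% with up to 2 mismatches, and 8.95% to 13.4% in the replicate lists. Octamer peaks near a TSS were 7.72% at 500 bp (7.60% of the others), 26.8% at 5 kb (26.6%), and 8.29% (11.7%) to 9.57% (10.5%) in the replicate 1 and 2 lists. The small gap to the other peaks, 10.4% against 10.6%, changed sign at 500 bp and 5 kb, at 250 bp windows (10.8% against 10.5%), with protein-coding TSSs (8.54% against 8.21%) and without the repeated contexts (11.3% against 10.6%). The signal difference was 0.11 on log2 of the −log10 p in place of signal, and 0.05 to 0.08 in the replicate lists. The share in the replicate 1 list was 39.5% among peaks with a −log10 p of at least 10 (39.6% of the others) and 15.6% at a reciprocal overlap of 50% (16.5%). Both changed the sign of the gap to the other peaks, which was 23.3% against 22.6%. The signal difference kept its sign in each alternative. No paired analysis was possible because there is 1 group only. Depth is unknown, and peaks of 1 list are not replicates, so the SEs leave out the spread between cultures.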
